A study of Mus musculus with 12 samples.

Results

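Shank2, Alox12, St5, Lsr, Tnfaip2, Itga5, Tpst2, Hectd2 and Sdc1 are 9 genes whose transcript level in the non-tumor liver of E2F7/8 double-knockout (DKO) mice stood apart from wild-type liver. They were selected on that difference in these same libraries, out of 19012 gene symbols, of which 11351 reached 0.5 RPKM (mapped reads scaled to transcript length and to library depth) in at least 4 libraries. All 9 passed this filter on low values. The question put to them was whether the difference from wild-type liver was still present, larger or absent in the tumor of the same animal.

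The study sequenced polyadenylated mouse RNA from 12 tissue pieces in 3 groups of 4: tumors from the liver of E2F7/8 DKO mice, livers of E2F7/8 DKO mice, and livers of wild-type mice. The codes in the deposited names pair each DKO liver with 1 DKO tumor. They are read here as animal codes, which the labels do not state, and so read every DKO liver came from a tumor-bearing mouse, while the wild-type livers carry codes of 4 other animals. The age and sex of the mice, the floxed or null nature of the alleles, any Cre driver and how the tumors arose are not given in the sources used here. Sequencing depth was inferred from the spacing of the RPKM values. It was 12.7 to 16.0 M reads in the tumors, 9.27 to 12.3 M reads in the DKO livers and 7.99 to 14.2 M reads in the wild-type livers. A tag in the deposited names, L02 or L03, splits the libraries: L03 stands on every tumor and on wild-type livers 3 and 4, and L02 on every DKO liver and on wild-type livers 1 and 2. Tissue and tag therefore cannot be told apart between tumor and DKO liver. E2f7 had 3 to 21 reads in tumors, 14 to 22 in DKO livers and 6 to 13 in wild-type livers, and since the deleted part of either gene is not given, these reads do not check the genotype. E2f8 had 1.66 to 12.2 RPKM in tumors, 2.80 to 20.8 RPKM in DKO livers and 1.66 to 4.30 RPKM in wild-type livers. Albumin and the other 9 hepatocyte markers were present in every group, with a summed level of 76090 to 126200 RPKM in tumors, 41180 to 111600 RPKM in DKO livers and 51140 to 79520 RPKM in wild-type livers. Albumin makes up most of that sum, and the median difference of the 10 markers was −0.61 for tumor against wild-type liver, with 4 of 10 positive, and 0.00 for DKO against wild-type liver.

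E2F7 and E2F8 are atypical E2F proteins that bind DNA without a DP partner and repress cell-cycle genes, and in the liver they are known for promoting polyploidy of hepatocytes. The 9 genes belong to no single pathway. Lsr, the lipolysis-stimulated lipoprotein receptor, and Sdc1, the transmembrane heparan sulfate proteoglycan syndecan 1, both bind triglyceride-rich lipoproteins at the hepatocyte surface, and Lsr is also a component of tricellular junctions. Itga5 encodes the alpha subunit that pairs with Itgb1 as the fibronectin receptor. Tnfaip2 is induced by tumor necrosis factor in endothelial and other cells. Alox12 is the platelet-type lipoxygenase, which oxygenates arachidonic acid. Tpst2 adds sulfate to tyrosines of secreted and membrane proteins in the Golgi. Shank2 is a scaffold protein of excitatory synapses and epithelia, St5 (also called Dennd2b) is a DENN-domain protein that activates RAB13 in human cells, and Hectd2 is a HECT-type ubiquitin ligase.

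Because 8 of the 9 genes were selected for a difference in the same direction, their promoters were read for shared short motifs. RefSeq promoter windows on GRCm38.p6, running from 250 bases before to 50 bases after a start, were found for 6 of the 9 genes. There were 8 windows, since Tpst2 has several starts. No window was listed for Shank2, St5 and Hectd2. Both strands were searched for the E2F-type motifs TTTGGCGC, TTTCCCGC, TTTGCCGC and TTTCGCGC, which were in 0 of the 8 windows and in 2.27% of all 32851 promoter windows. The GC box GGGCGG, searched on both strands and chosen after the windows had been read, was in 6 of the 8 windows, with at least 1 in each of the 6 genes, and in 35.7% of all windows. The absence of these letters from a window says nothing on whether an E2F protein binds there, and a match is not a binding site. The 250 bases before the start are printed for Sdc1, whose difference was absent from the tumors, and for Tnfaip2, whose difference was present in them. Capitals mark the GC boxes on either strand. Sdc1 is read from the plus strand at chr12:8771146-8771395 and Tnfaip2 from the plus strand at chr12:111442411-111442660, both 5′ to 3′.
Sdc1: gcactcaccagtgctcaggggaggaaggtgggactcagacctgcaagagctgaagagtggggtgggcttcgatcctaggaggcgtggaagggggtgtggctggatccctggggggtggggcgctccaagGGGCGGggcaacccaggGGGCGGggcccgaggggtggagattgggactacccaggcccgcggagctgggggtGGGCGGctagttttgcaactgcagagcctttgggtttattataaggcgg
Tnfaip2: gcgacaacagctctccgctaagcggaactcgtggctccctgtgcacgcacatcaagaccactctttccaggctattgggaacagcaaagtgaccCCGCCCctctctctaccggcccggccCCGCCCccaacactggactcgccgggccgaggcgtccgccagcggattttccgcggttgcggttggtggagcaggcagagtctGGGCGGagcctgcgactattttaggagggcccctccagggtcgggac
Both stretches hold 3 GC boxes.

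In the deposited coordinates on mm9, whose counting base is not stated, the genes lie on 6 chromosomes. Shank2 (chr7:151470289-151608579, plus strand), St5 (chr7:116667424-116760660, minus strand) and Lsr (chr7:31742793-31758222, minus strand) are on chromosome 7, and Tnfaip2 (chr12:112683172-112693227) and Sdc1 (chr12:8778201-8800492) are on the plus strand of chromosome 12. Alox12 is at chr11:70054956-70068842 on the minus strand, Itga5 at chr15:103174717-103197193 on the minus strand, Tpst2 at chr5:112705745-112744375 on the plus strand and Hectd2 at chr19:36629269-36695617 on the plus strand. No transcript of another symbol overlapped any of the 9. Among the 18 nearest tested neighbours, the difference between DKO and wild-type liver ran from −0.63 to 0.78 on the log2 scale with a median of 0.19. The median of all tested genes was 0.08. The groups did not overlap for 2 of the 18 neighbours, Zfp385a beside Itga5 and Tfip11 beside Tpst2, against 7.59% of all genes.

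Differences below are of group means of log2(RPKM + 1), from limma fitted over all 11351 genes and 12 libraries, and Benjamini-Hochberg adjusted p-values run over all genes. The offset of 1 understates differences of low genes such as Alox12. Between DKO and wild-type liver, no gene of the 11351 passed an adjusted p of 0.05 (0%), 1408 had an unadjusted p under 0.05 (12.4%), and voom on recovered reads gave 0 and 1347. All 9 genes are among those 1408, and their groups did not overlap, which was so for 7.59% of all genes. This contrast chose the genes, so nothing is read from those counts. By p-value the 9 genes ranked 1, 3, 5, 6, 7, 8, 11, 12 and 98 of 11351. The 3 other genes with the smallest p-values were Tubb2a, a beta-tubulin, Osgin1, an oxidative stress-induced gene, and Gdpd1, a phosphodiesterase-family gene. Tubb2a averaged 59.0 RPKM in tumors, 33.4 RPKM in DKO livers and 8.10 RPKM in wild-type livers. The selection had no stated threshold.

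The wild-type level of the 9 genes ran from among the lowest of the genes tested to among the highest. Alox12 was at the 1.1 percentile and Shank2 at the 13.9 percentile of the wild-type levels of tested genes, St5 and Itga5 were at the 39.7 and 39.5 percentiles, and Sdc1 and Lsr were at the 91.3 and 92.5 percentiles. Alox12 rested on few reads, with 22 to 29 in tumors, 31 to 79 in DKO livers and 4 to 17 in wild-type livers. Lsr had at least 1175 reads in every library.

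**Figure D1:**
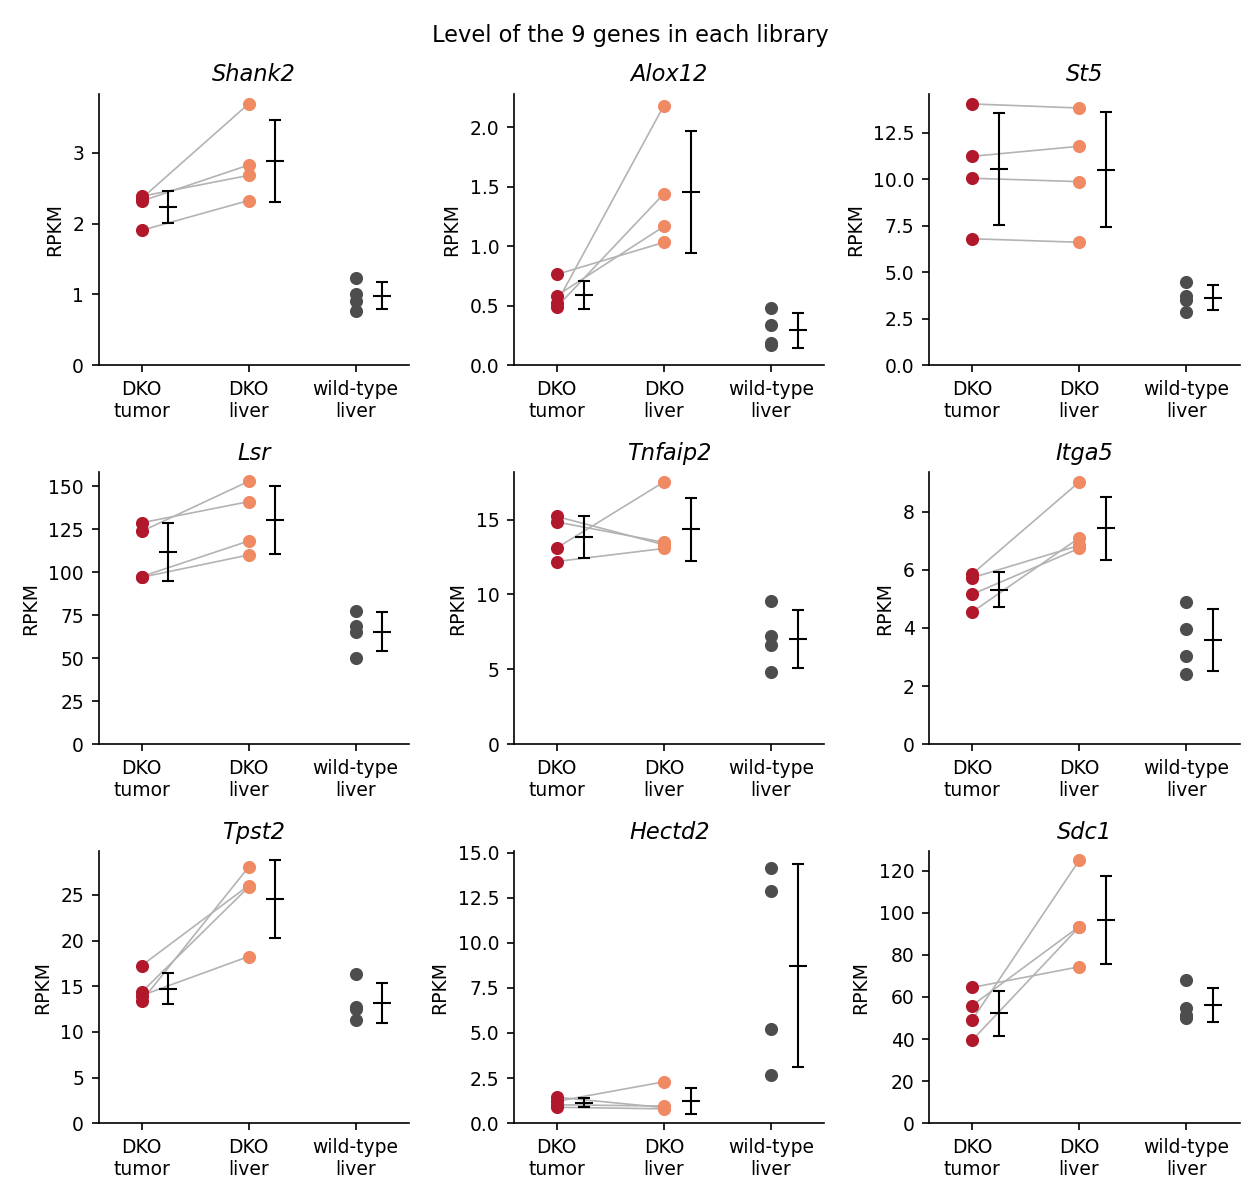
RPKM of each gene in the 4 DKO tumors, 4 DKO livers and 4 wild-type livers, 1 point per library on an axis from 0. Grey lines join tumor and liver of the same animal, and bars give mean ± SD (n = 4). St5, Hectd2, Tnfaip2, Shank2 and Lsr in tumors lie with the DKO livers, and Sdc1 and Tpst2 in tumors lie with the wild-type livers.

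In 6 of the 9 genes all 4 tumors lay beyond the range of the wild-type livers on the side of the DKO liver difference. These were Shank2, Alox12, St5, Lsr, Tnfaip2 and Hectd2, and over all genes tumors and wild-type livers did not overlap in 11.9%. None of the 9 genes had a larger difference in the tumor that passed the test against DKO liver. Only 1 gene of 11351 passed that test (0.00881%), so little is read from this absence. For Sdc1 no tumor lay beyond the wild-type range, and Itga5 and Tpst2 were in between, with 3 and 1 of the 4 tumors beyond it. Of the 9 genes, 4 passed the test between tumor and wild-type liver: Shank2, St5 and Tnfaip2 rose and Hectd2 fell. Over all genes 216 passed (1.9%), 140 higher (1.23%) and 76 lower (0.67%), and 6 of the 9 against 19.2% of all genes had an unadjusted p under 0.05. The wild-type livers are the same as in the contrast that chose the genes, so these p-values are not independent of that choice. They measure the spread between these libraries, and the labels do not state that each wild-type liver is from a separate animal, beyond the codes in the names.

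The calls against wild-type liver depended on single libraries and on the tag. None of the 4 genes passed without DKO tumor 1, DKO tumor 2, wild-type liver 1 or wild-type liver 4, and only St5 and Tnfaip2 passed without DKO tumor 4. With the tag as a covariate the differences were 0.78 for Shank2, 1.40 for St5, 1.10 for Tnfaip2 and −1.81 for Hectd2. Without it they were 0.71, 1.29, 0.91 and −1.97. None of the 9 genes passed with the tag, and 3 passed of all genes. Within tag L03 alone, 4 tumors against 2 wild-type livers, the 4 differences were the same as with the covariate. None of the 9 passed there, which is no separate check.

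St5, the DENN-domain gene, had the same level in tumor and DKO liver. It had 11.2, 14.1, 10.1 and 6.80 RPKM in tumors 1 to 4, 11.8, 13.8, 9.88 and 6.61 RPKM in DKO livers 1 to 4, and 3.502, 4.46, 3.70 and 2.84 RPKM in wild-type livers 1 to 4. Every DKO piece, tumor or liver, was above every wild-type liver, and tumor and liver of an animal took the same place in the order of their group. The mean was 10.5 ± 3.01 RPKM in tumors, 10.5 ± 3.07 RPKM in DKO livers and 3.62 ± 0.666 RPKM in wild-type livers (SD, n = 4 each). St5 was higher in tumor than in wild-type liver by 1.29 (SE 0.23, limma adjusted p = 0.0215). Between tumor and DKO liver the difference was 0.00 after rounding to 2 decimals (95% interval −0.49 to 0.50, limma adjusted p = 0.995). A shorter St5 transcript in the files, which shares part of the gene, had 0.769 to 0.954 of the longer one's RPKM across the 12 libraries.

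Hectd2, the ubiquitin ligase, was the only one of the 9 genes lower in DKO liver. It had 1.02, 1.21, 1.44 and 0.880 RPKM in tumors, 0.950, 2.29, 0.862 and 0.795 RPKM in DKO livers, and 12.8, 5.23, 2.68 and 14.2 RPKM in wild-type livers. The wild-type livers themselves varied widely, with livers 1 and 4 high and liver 3 near the highest DKO liver, yet no DKO piece reached any of them. The mean was 1.14 ± 0.243 RPKM in tumors, 1.22 ± 0.714 RPKM in DKO livers and 8.73 ± 5.64 RPKM in wild-type livers (SD, n = 4 each). Hectd2 fell by 1.97 on the log2 scale in tumor against wild-type liver (SE 0.38, limma adjusted p = 0.0268). Between tumor and DKO liver the difference was −0.02 (95% interval −0.85 to 0.81), and its sign turned with several settings.

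Tnfaip2, the tumor necrosis factor-induced gene, had 13.1, 14.8, 12.2 and 15.2 RPKM in tumors, 17.5, 13.5, 13.1 and 13.3 RPKM in DKO livers, and 6.60, 9.53, 7.23 and 4.82 RPKM in wild-type livers. DKO liver 1 was the highest, the tumors overlapped the DKO livers, and wild-type livers were below both. Tnfaip2 averaged 13.8 ± 1.42 RPKM in tumors, 14.4 ± 2.12 RPKM in DKO livers and 7.05 ± 1.95 RPKM in wild-type livers (SD, n = 4 each). It was higher in tumor than in wild-type liver by 0.91 (SE 0.18, limma adjusted p = 0.0264). Against DKO liver the difference was −0.04 (95% interval −0.43 to 0.34).

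Shank2, the scaffold gene, had 2.35, 1.90, 2.32 and 2.39 RPKM in tumors, 3.69, 2.33, 2.83 and 2.68 RPKM in DKO livers, and 0.911, 1.23, 1.01 and 0.772 RPKM in wild-type livers. Tumor and DKO liver overlapped narrowly, and each tumor was below the liver of its own animal. The means were 2.24 ± 0.226 RPKM in tumors, 2.88 ± 0.580 RPKM in DKO livers and 0.980 ± 0.192 RPKM in wild-type livers (SD, n = 4 each). Shank2 was higher in tumor than in wild-type liver by 0.71 (SE 0.15, limma adjusted p = 0.0283), and differed from DKO liver by −0.25 (95% interval −0.57 to 0.06, limma adjusted p = 0.414).

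Lsr, the lipoprotein receptor, was the highest-expressed of the 9 genes, with 124, 97.4, 97.0 and 129 RPKM in tumors, 153, 118, 110 and 141 RPKM in DKO livers, and 77.2, 65.3, 68.9 and 49.9 RPKM in wild-type livers. No wild-type liver reached the lowest tumor. Lsr averaged 112 ± 16.9 RPKM in tumors, 131 ± 19.9 RPKM in DKO livers and 65.3 ± 11.4 RPKM in wild-type livers (SD, n = 4 each). The difference of 0.77 between tumor and wild-type liver (SE 0.19) did not pass the test (limma adjusted p = 0.0566), but passed without DKO tumor 3 and, at 1.04 (limma adjusted p = 0.0238), with quantile normalization, where 5 of the 9 genes passed. Against DKO liver it was −0.22 (95% interval −0.64 to 0.19), with the opposite sign after quantile normalization (0.02).

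**Figure D2:**
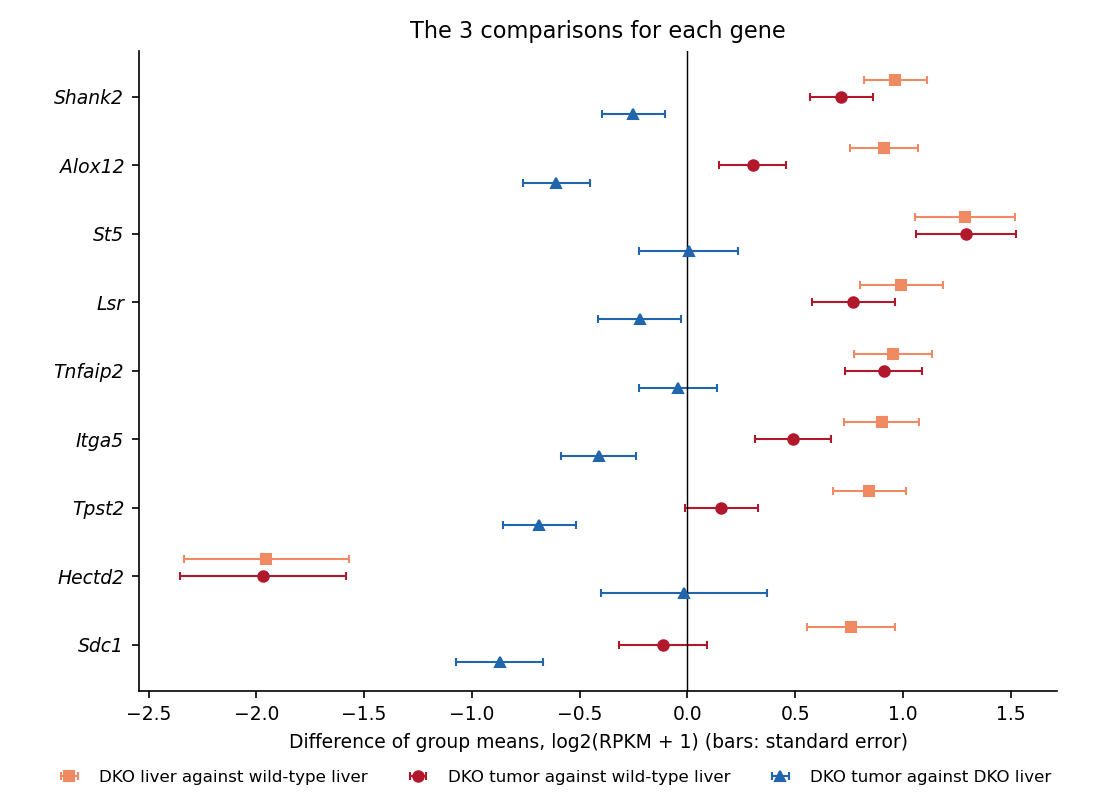
Difference of group means on the log2(RPKM + 1) scale for each gene, with the standard error from limma as bars. Orange squares, DKO liver against wild-type liver, are the values the genes were selected on; red circles are DKO tumor against wild-type liver and blue triangles DKO tumor against DKO liver. For St5, Hectd2, Tnfaip2, Lsr and Shank2 the bars of the square and the circle overlap, and for Sdc1 the circle is on the other side of 0 at −0.11.

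Sdc1, Tpst2, Alox12 and Itga5 had lower levels in all 4 tumors than in any DKO liver, a separation seen in 6.2% of all genes. None of the 9 genes passed the test between tumor and DKO liver, which 1 gene of 11351 passed (0.00881%); the same 4 had an unadjusted p under 0.05, against 16.1% of all genes. The DKO livers are those of the contrast that chose the genes for high liver levels, so a lower tumor is not independent of that choice. With the animal as a block over the 8 DKO libraries, 71 genes passed over the table and again none of the 9, with limma adjusted p-values of 0.144 for Tpst2, 0.151 for Alox12, 0.158 for Sdc1 and 0.255 for Itga5. The median difference of all genes between tumor and DKO liver was −0.09, and 0.02 after median-of-ratios scaling, so values near −0.1 are at the level of all genes.

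Sdc1, the syndecan, had 55.9, 39.4, 64.5 and 49.0 RPKM in tumors, 93.5, 93.2, 74.4 and 125 RPKM in DKO livers, and 51.5, 68.0, 54.8 and 50.1 RPKM in wild-type livers. The tumors lay among and below the wild-type livers. The means were 52.2 ± 10.6 RPKM in tumors, 96.5 ± 20.9 RPKM in DKO livers and 56.1 ± 8.17 RPKM in wild-type livers (SD, n = 4 each). The tumor differed from DKO liver by −0.87 (SE 0.20, limma adjusted p = 0.0811; 0.0362 without DKO tumor 3) and from wild-type liver by −0.11 (95% interval −0.55 to 0.32).

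Tpst2, the tyrosine sulfotransferase, had 13.4, 14.3, 17.3 and 14.0 RPKM in tumors, 28.1, 25.9, 26.04 and 18.3 RPKM in DKO livers, and 12.7, 16.3, 11.3 and 12.5 RPKM in wild-type livers. Tumor 3 was above the highest wild-type liver and the other tumors were within the wild-type range. Tpst2 averaged 14.7 ± 1.73 RPKM in tumors, 24.6 ± 4.31 RPKM in DKO livers and 13.2 ± 2.18 RPKM in wild-type livers (SD, n = 4 each). The tumor differed from DKO liver by −0.69 (SE 0.17, limma adjusted p = 0.0880; 0.0449 without DKO tumor 3) and from wild-type liver by 0.16 (95% interval −0.21 to 0.52).

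Alox12, the lipoxygenase, had 0.524, 0.763, 0.585 and 0.490 RPKM in tumors, 2.18, 1.03, 1.17 and 1.44 RPKM in DKO livers, and 0.168, 0.339, 0.478 and 0.188 RPKM in wild-type livers. The tumors lay between the other groups, and tumor 4 was barely above wild-type liver 3. Alox12 averaged 0.590 ± 0.122 RPKM in tumors, 1.46 ± 0.514 RPKM in DKO livers and 0.293 ± 0.145 RPKM in wild-type livers (SD, n = 4 each), a ratio of means of 2.01 for tumor over wild-type liver and of 0.405 for tumor over DKO liver. The tumor differed from DKO liver by −0.61 (SE 0.16, limma adjusted p = 0.1001) and from wild-type liver by 0.30 (SE 0.16, limma adjusted p = 0.318).

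Itga5, the fibronectin receptor subunit, had 5.85, 4.55, 5.16 and 5.73 RPKM in tumors, 9.02, 7.10, 6.74 and 6.84 RPKM in DKO livers, and 2.43, 4.90, 3.96 and 3.05 RPKM in wild-type livers. Tumor 2 was below the highest wild-type liver, and the other tumors lay between the groups. The means were 5.32 ± 0.598 RPKM in tumors, 7.43 ± 1.08 RPKM in DKO livers and 3.58 ± 1.08 RPKM in wild-type livers (SD, n = 4 each). The tumor differed from DKO liver by −0.41 (SE 0.17, limma adjusted p = 0.268) and from wild-type liver by 0.49 (SE 0.17, limma adjusted p = 0.147).

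Marker lists of macrophages, stellate cells, endothelium and blood cells had, like these 4 genes, a positive median between DKO and wild-type liver and a negative one between tumor and DKO liver. These signs are not particular to the 4 genes or to these lists. Shank2, Lsr and Tnfaip2 had them too, as did several of the pathway lists below and the median of all tested genes (0.08 and −0.09). Between tumor and wild-type liver the median was −0.94 for macrophage, −0.28 for T and NK cell and −0.21 for B and plasma cell markers. It was 0.12 for stellate, 0.13 for endothelial, 0.255 for neutrophil and 0.24 for platelet markers. Of the 4 genes, Alox12, Itga5 and Tpst2 had positive differences in that comparison and Sdc1 a negative one (−0.11). In bulk tissue, fewer cells of a type and less RNA per cell cannot be told apart. All 9 macrophage and Kupffer cell markers had a positive difference between DKO and wild-type liver, and all 9 a negative one between tumor and DKO liver. Their summed level was 50.8 to 259 RPKM in tumors, 207 to 613 RPKM in DKO livers and 117 to 313 RPKM in wild-type livers. The 9 stellate cell and fibroblast markers had medians of 0.75 for DKO against wild-type liver and −0.77 for tumor against DKO liver, and summed to 58.7 to 243 RPKM in tumors, 108 to 352 RPKM in DKO livers and 103 to 144 RPKM in wild-type livers. The 9 endothelial markers, of which Tnfaip2 and Itga5 are not part, had medians of 0.55 for DKO against wild-type liver and −0.28 for tumor against DKO liver, with summed levels of 43.5 to 115 RPKM in tumors, 86.1 to 137 RPKM in DKO livers and 55.2 to 84.6 RPKM in wild-type livers. With quantile normalization 8 of the 9 stellate markers were positive between DKO and wild-type liver, and 3 of the 9 endothelial markers, instead of 1, were positive between tumor and DKO liver. Neutrophil markers, 5 of 7 in the files, summed to 4.42 to 35.3 RPKM in tumors, 9.67 to 145 RPKM in DKO livers and 5.84 to 12.3 RPKM in wild-type livers. B and plasma cell markers summed to 3.98 to 50.7 RPKM in tumors, 24.5 to 101 RPKM in DKO livers and 10.4 to 24.8 RPKM in wild-type livers, and T and NK cell markers to 2.09 to 7.51 RPKM in tumors, 7.33 to 12.4 RPKM in DKO livers and 2.33 to 7.38 RPKM in wild-type livers. No marker of these lists passed the test in any of the 3 comparisons, apart from 1 T and NK cell marker between tumor and DKO liver with quantile normalization, and none was at 0 throughout a group. Cholangiocyte markers, 7 of 8 in the files and 5 tested, had medians of 0.48 for tumor against wild-type liver, 0.71 for DKO against wild-type liver and −0.30 for tumor against DKO liver. They summed to 40.0 to 138 RPKM in tumors, 37.1 to 178 RPKM in DKO livers and 31.9 to 49.1 RPKM in wild-type livers, and 1 passed, Tspan8, a tetraspanin, which rose in tumor against wild-type liver by 2.28 (limma adjusted p = 0.0215). The part of these cells in the levels of the 9 genes was not tested.

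Platelet markers were read beside Alox12, the platelet-type enzyme. Of 8 listed markers 7 are in the files and 4 were tested, all positive between DKO and wild-type liver (median 0.76) and all negative between tumor and DKO liver (median −0.54). The 7 markers summed to 4.02 to 7.14 RPKM in tumors, 4.82 to 31.0 RPKM in DKO livers and 2.56 to 3.72 RPKM in wild-type livers. Of all other tested genes, the one whose pattern over the 12 libraries was most like Alox12 was Ppbp, which encodes platelet basic protein, with a Pearson correlation of 0.90 on the log2(RPKM + 1) scale. The correlation is a description over libraries that share groups and depth. Ppbp is also 1 of the 7 markers in the sums, so the sums and the correlation are not separate readings. Ppbp had 2.96, 2.62, 4.60 and 3.14 RPKM in tumors, 20.3, 3.23, 11.4 and 5.89 RPKM in DKO livers, and 1.28, 2.02, 2.26 and 1.56 RPKM in wild-type livers. Liver 1 was the highest of the DKO livers and liver 2 the lowest for both genes, while livers 3 and 4 came in opposite order. The wild-type livers came in the same order for both genes. Among the tumors, tumor 2 was the highest for Alox12 and the lowest for Ppbp. The part of platelets in the Alox12 level was not tested.

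**Figure D3:**
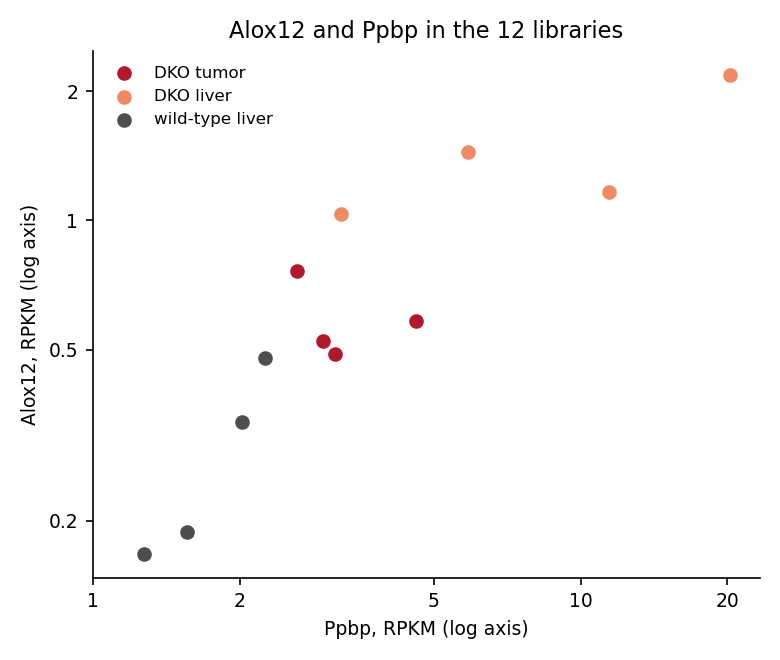
Alox12 against Ppbp in the 12 libraries, both in RPKM on log axes, coloured by group. DKO liver 1 is the highest for both, with 2.18 RPKM of Alox12 and 20.3 RPKM of Ppbp, and wild-type liver 1 the lowest for both, with 0.168 and 1.28 RPKM. Among the tumors, tumor 2 is the highest for Alox12 (0.763 RPKM) and the lowest for Ppbp (2.62 RPKM).

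Within animals, 6 of the 8 genes higher in DKO liver had less RPKM in the tumor than in the liver in all 4 animals: Shank2, Alox12, Lsr, Itga5, Tpst2 and Sdc1. The 8 genes were chosen for high levels in these same livers, so lower tumors are not independent of that choice. The tag also separates every tumor from every DKO liver. The median difference of all genes was −0.09, and the share of all genes lower in all 4 animals was not counted. The ratios are also not corrected for the share of reads taken by albumin. Albumin had 109400, 94720, 62060 and 57620 RPKM in tumors 1 to 4, and 20690, 51230, 42860 and 98560 RPKM in DKO livers 1 to 4. Its part in the ratios was not tested. The tumor-to-liver ratio ran from 0.637 to 0.890 for Shank2, from 0.641 to 0.837 for Itga5, from 0.477 to 0.765 for Tpst2 and from 0.2398 to 0.739 for Alox12. Animals also differed for Sdc1, with ratios of 0.598, 0.423, 0.868 and 0.393 in animals 1 to 4, and for Hectd2, with 1.07, 0.529, 1.67 and 1.11. St5 had ratios of 0.954, 1.02, 1.02 and 1.03. On the log2 scale its tumor-minus-liver differences had an SD of 0.045 over the 4 animals, against an SD of 0.414 among the 4 livers. The median within-animal SD of all tested genes was 0.369, and 7 of 11351 genes (0.0617%) had a ratio of the within-animal SD to the SD among livers as low as that of St5. Lsr had a within-animal SD of 0.080 and a ratio as low in 2.32% of genes. Its animals did not keep their order, with the highest liver in animal 1 (153 RPKM) and the highest tumor in animal 4 (129 RPKM).

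**Figure D4:**
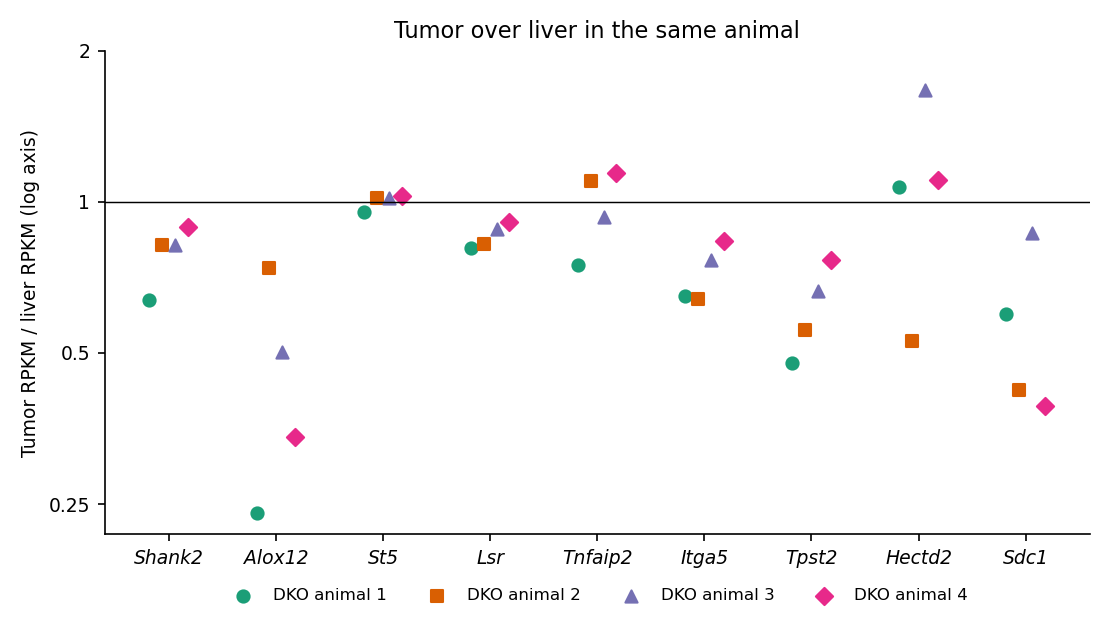
Ratio of tumor RPKM to liver RPKM in each of the 4 DKO animals, on a log axis with a line at 1. The 4 St5 points lie together at 0.954 to 1.03, and all points of Shank2, Alox12, Lsr, Itga5, Tpst2 and Sdc1 are below 1. The genes were chosen for their levels in these livers.

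Expressed as a share of the liver difference from wild type, the mean tumor difference was 100.4% for St5, 100.8% for Hectd2, 95.4% for Tnfaip2, 77.6% for Lsr, 73.9% for Shank2, 54.3% for Itga5, 33.2% for Alox12, 18.5% for Tpst2 and −14.9% for Sdc1. The liver difference is the one the genes were chosen on, and both differences subtract the same wild-type mean. The shares are therefore descriptions and are not independent of that choice. The small Tpst2 difference between tumor and wild-type liver was 0.08 when DKO tumor 3 was left out and 0.29 with the tag as covariate. Leaving out liver 2 or liver 3 of the wild-type group gave 0.26 and 0.09. The 28 pairs of the 8 genes higher in DKO liver had a median Pearson correlation of 0.75 over the 12 libraries, which the choice of the genes raises. After the group means were subtracted the median was 0.34, with a range of −0.26 to 0.74 and 5 pairs below 0. The same median for other tested genes was not computed, so nothing is read from it.

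Relatives of the 9 genes were read from lists that exclude the 9. No gene of any of the 12 pathway lists passed the test between DKO and wild-type liver or between tumor and DKO liver. Between tumor and wild-type liver, no list gene fell. In the lipoprotein clearance list 1 of 27 tested genes rose, Lpl, the lipase that hydrolyses lipoprotein triglycerides, which averaged 76.1 ± 25.8 RPKM in tumors, 24.2 ± 7.71 RPKM in DKO livers and 8.47 ± 3.07 RPKM in wild-type livers (SD, n = 4 each); its difference between tumor and wild-type liver was 3.003 (limma adjusted p = 9.855e-04). From the junction list that holds Lsr, Cdh1, E-cadherin, rose between tumor and wild-type liver (2.71, limma adjusted p = 0.0178). Cdh1 averaged 32.4 RPKM in tumors, 12.1 RPKM in DKO livers and 4.26 RPKM in wild-type livers. Lpl and Cdh1 had their highest mean in tumors, while Lsr and Sdc1 had theirs in DKO livers.

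In the integrin and fibronectin list, 1 of 15 tested genes other than Itga5 rose between tumor and wild-type liver, Itga6, a laminin receptor subunit, with 4.02 ± 1.46 RPKM in tumors, 2.60 ± 0.514 RPKM in DKO livers and 1.60 ± 0.321 RPKM in wild-type livers (SD, n = 4 each) and a difference of 0.91 (limma adjusted p = 0.0373). All 15 had a positive difference between DKO and wild-type liver, with a median of 0.30 against 0.08 for all tested genes, and 11 of the 15 were positive after median-of-ratios scaling. Itgb1, the partner of Itga5, had 67.2 ± 15.6 RPKM in tumors, 58.4 ± 9.66 RPKM in DKO livers and 54.3 ± 9.21 RPKM in wild-type livers (SD, n = 4 each), differences within the spread of the groups.

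No other syndecan passed the test in any comparison. Sdc3, like Sdc1, had its highest mean in DKO livers and its lowest in tumors, with 10.7 ± 7.82 RPKM in tumors, 25.4 ± 10.8 RPKM in DKO livers and 13.4 ± 7.27 RPKM in wild-type livers (SD, n = 4 each), and the groups overlapped. Sdc4 averaged 174 RPKM in tumors, 237 RPKM in DKO livers and 256 RPKM in wild-type livers, and Sdc2 101 RPKM in tumors, 112 RPKM in DKO livers and 109 RPKM in wild-type livers. Tpst1, the other tyrosine sulfotransferase, had 11.9 ± 3.72 RPKM in tumors, 17.6 ± 4.16 RPKM in DKO livers and 15.4 ± 3.78 RPKM in wild-type livers (SD, n = 4 each). Nfkbia, an inhibitor of NF-kB in the list with Tnfaip2, averaged 15.4 RPKM in tumors, 26.7 RPKM in DKO livers and 33.6 RPKM in wild-type livers. It is one of the list's 2 highest genes and runs against its list, of which 14 of 18 tested genes had a positive difference both for tumor against wild-type liver (median 0.18) and for DKO against wild-type liver (median 0.24), and none passed. Likewise none passed in the lists of 11 DENN-domain genes, 9 Shank partners, 19 HECT ligases, 11 exocyst genes, 8 arachidonate genes, 7 sulfation genes and 7 syndecans and glypicans. The 19 E2F target genes had medians of 0.50 for tumor against wild-type liver, 0.31 for DKO against wild-type liver and 0.27 for tumor against DKO liver, and none passed.

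The gene most like each of the others over the 12 libraries was found by the same correlation, as a description. It was Lrfn3 for St5 (0.95), Asb2 for Sdc1 (0.94), Zfp157 for Hectd2 (0.93), Impdh1 for Shank2 (0.93), C85492 for Tpst2 (0.93), Chd4 for Tnfaip2 (0.92), Pim2 for Lsr (0.90) and Zfp335 for Itga5 (0.89). Asb2 had the Sdc1 pattern at a low level, with means of 0.241 RPKM in tumors, 1.05 RPKM in DKO livers and 0.317 RPKM in wild-type livers.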

How the data were processed

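Poly(A) RNA from 4 DKO tumors, 4 DKO livers and 4 wild-type livers was made into SOLiD libraries, per the labels' protocols. The authors deposited RPKM values per transcript; BWA and mm9 are named in the submitters' processing notes, and the counting tool, its annotation and any use of strand are not given in the sources used here. RPKM corrects for depth and length but not for a few abundant genes taking a larger share of reads. The transcript with the longest exon length stood for each symbol. RPKM times length rose in steps of 1 read in each library, and depth was inferred from the size of that step. Dividing by the step gave reads, used for voom. They were within 0.05 of a whole number for at least 99.99% of transcripts in each library.

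limma 3.58.1 (R 4.3.3) was fitted to log2(RPKM + 1) over 12 libraries with 1 mean per group, intensity trend and robust shrinkage, and tested on simulated data; genes had at least 0.5 RPKM in at least 4 libraries, and calls used an adjusted p of 0.05. Descriptions and figures used Python 3.11.15, pandas 2.3.3 and matplotlib 3.10.9. The 9 genes, the gene lists and the tests were chosen with earlier results of these data known. A difference counted as present in the tumor where all 4 tumors lay beyond the wild-type range, and as absent where none did. Other genes were named as the 3 with the smallest p between DKO and wild-type liver, the most correlated gene to each of the 9, and called genes of each list (or its 2 highest), of which some are not reported here; Zfp385a, Tfip11, Itgb1, Tpst1, Sdc3, Tspan8 and the GC box were picked after their values were seen.

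Tumor and liver with the same number share a code in the deposited names, read as the animal; their deviations from group means correlated at 0.117, 0.347, 0.368 and 0.003 for animals 1 to 4, where the highest correlation of the tumor with another liver was 0.154, 0.01, −0.049 and 0.092. Alternatives were another offset, other filters and scalings, voom, the tag, the animal block, the transcript with the highest mean, and leaving out each library.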

Additional observations from a re-analysis of the deposited data

Results flagged for a closer look

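In 4 of the 27 groups of 4 libraries (9 genes in 3 groups) 1 library stood apart by Dixon's criterion, a gap to the nearest library above 0.83 of the group's range; chance flags about 1 group in 20. Shank2 was low in DKO tumor 2, at 1.904 RPKM against 2.318 to 2.386 RPKM in the other tumors. DKO liver 1 was high for Tnfaip2, at 17.51 RPKM against 13.07 to 13.48 RPKM in the other DKO livers, and for Itga5, at 9.023 RPKM against 6.742 to 7.098 RPKM. Hectd2 was high in DKO liver 2, at 2.29 RPKM against 0.7947 to 0.9501 RPKM.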

How the results depend on the processing

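In DKO liver against wild-type liver (0 genes called), 1 gene passed with median-of-ratios scaling, 1 with the 8 libraries of the comparison alone and 0 to 2 with 1 library left out. The differences of the 9 genes kept their sign under every setting run. This contrast chose the genes, and all 4 DKO livers lay beyond the wild-type range for all 9, so nothing is read from the kept signs. In tumor against wild-type liver (216 genes, 4 of the 9), 1 gene and 0 of the 9 passed without a filter, 598 genes with median-of-ratios scaling, 478 with quantile normalization, 3 genes and 0 of the 9 with the tag as covariate, 25 and 0 within tag L03, and 128 and 1 with the replicate block; leaving out 1 library gave 16 to 413 genes and 0 to 5 of the 9. In tumor against DKO liver (1 gene, 0 of the 9), 2 genes passed without a filter, 24 with quantile normalization, 55 with the 8 libraries alone, 0 with the tag and 71 with the replicate block; leaving out 1 library gave 1 to 363 genes, the most without DKO tumor 3, and 0 to 2 of the 9.

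Signs turned for Sdc1 in tumor against wild-type liver with quantile normalization (0.065) and over libraries left out (−0.221 to 0.012). In tumor against DKO liver they turned for Lsr with quantile normalization (0.021) and the tag (0.05); for Tnfaip2 with median-of-ratios (0.089), quantile (0.056), the tag (0.326) and libraries left out (−0.088 to 0.05); for Hectd2 with an offset of 0.1 (0.009), median-of-ratios (0.052), quantile (0.068), voom (0.02), the tag (0.297) and libraries left out (−0.104 to 0.188); and for St5 with libraries left out (−0.181 to 0.18). The cause was not tested. Between DKO or tumor and wild-type liver the numbers mark no shared animal (correlations of −0.127 to 0.227 and −0.101 to 0.047); with the block in tumor against wild-type liver only St5 of the 4 called genes still passed, and the block changed no other call of the 9.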
